A study of Homo sapiens with 18 samples.

Results

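The solvent control of a drug experiment was compared with untreated cells, copy by copy, across the repeat sequences of the human genome. The cells were IMR90, an established human fibroblast line from lung, which the labels give as wildtype. Untreated cells received fresh medium 12 h before RNA extraction. The DMSO groups received medium with DMSO for 6, 12 or 24 h, in a volume equal to that of the 5-fluorouracil (5-FU) solution given to parallel cultures; the labels do not give the DMSO concentration. Each of these 4 groups has 2 libraries, so 8 of the 18 samples of the series take part, and every DMSO or untreated library of the 5-FU time course was used. The labels name no genetic change in any group. The 12 h DMSO group is the one matched to the untreated cells for time since the medium was changed, while the 6 and 24 h groups differ from them in that time as well as in DMSO. IMR90 is 1 cell line, and the labels do not say whether the 2 libraries of a group came from separate cultures, so the p-values measure only the spread between these libraries.

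Repeats make up much of the human genome. Alu, MIR and AmnSINE1 are short interspersed elements, L1 and L2 are long ones, L3 and CR1 are related old LINEs, SVA is a composite hominid element, MLT, LTR and HERV names belong to endogenous retroviruses and their long terminal repeats, and Tigger and Arthur1 are DNA transposons. Most copies are old and no longer mobile, and many lie within genes, so that total RNA contains them as pieces of longer transcripts. Copies named LSU-rRNA or SSU-rRNA outside the ribosomal DNA arrays resemble the large and small ribosomal subunit RNAs. DMSO is a polar solvent that carries drugs into culture medium and is itself active on cells at high concentration.

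RNA was sequenced as stranded total RNA, and the authors deposited raw counts for 2404193 annotated repeat copies with 1113 names. Total counts were 3481300 and 2895007 in the untreated libraries and ran from 2412334 to 5635377 in the 6 DMSO libraries, the 12 h libraries being the shallowest. Structural RNA (ribosomal, transfer and small RNAs) took 30% and 31% of the untreated counts and 31.7% to 39% of the DMSO counts. The tables list no gene, so the fibroblast identity could not be checked by marker genes. Positions are those of the tables, on hg19 per the submitters' processing notes; for lack of an annotation of hg19 here, whether a copy lies in a gene, exon or intron is not given.

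A copy or a repeat name was counted as shared when it differed from untreated cells in the same direction in the 6, the 12 and the 24 h group, each at an adjusted p under 0.05 (edgeR's quasi-likelihood test, Benjamini-Hochberg over everything tested). The 3 comparisons use the same 2 untreated libraries, so a deviation of those libraries enters all of them. Of 63602 copies with enough counts to test, 76 were shared, which is 0.119% of them. Of these, 46 were higher with DMSO (0.0723%) and 30 were lower (0.0472%). Taken alone, the 6 h group had 473 copies higher (0.744%) and 396 lower (0.623%), 1.37% of copies in all. The 12 h group had 705 higher (1.11%) and 657 lower (1.03%), together 2.14%. The 24 h group had the fewest, 160 higher (0.252%) and 60 lower (0.0943%), together 0.346%. The mean of the 3 DMSO groups against untreated called 409 copies higher (0.643%) and 648 lower (1.02%), 1.66% in all, and the 76 shared copies were among them. In bulk RNA of this kind, fewer cells with a transcript and less of it per cell cannot be told apart.

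That split depends on how libraries are scaled. With scaling by library size alone, which lowers the median log2 fold change of all copies in the mean comparison from 0.01 to -0.13, the shared list became 38 higher and 70 lower and held 68 of the 76 copies. Under that scaling the 6 h group had 371 higher and 1171 lower, the 12 h group 637 and 1058, the 24 h group 132 and 154, and the mean 389 and 1614, while DESeq2 gave the 24 h group 270 and 268 and a shared list of 86 higher and 92 lower. The list was shorter when a library was left out, where the filter on low counts also let more copies be tested (88903 to 98967). Without untreated replicate 1 the list held 30 copies (21 of the 76), and without untreated replicate 2 it held 15 (4 of the 76); the untreated library left is then assumed to vary as the other groups do. Without DMSO 24 h replicate 1 or 2 it held 39 and 26 (32 and 23 of the 76), without DMSO 12 h replicate 1 or 2 it held 41 and 44 (36 of the 76 each time), and without DMSO 6 h replicate 1 or 2 it held 51 and 56 (48 each time).

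In each of the 76 shared copies the 6 DMSO libraries lay wholly above or wholly below the 2 untreated libraries. The rule that chose them used the same libraries, so this is a description; across all copies tested 15.8% do so, 8.07% above and 7.68% below. The higher copies had a median level of 1.25 CPM (counts scaled to a common TMM-adjusted library total) in untreated cells and 9.17 with DMSO, and the lower copies 40 and 12.2. By time (6, 12 and 24 h) the median log2 fold changes of the higher copies were 2.73, 2.62 and 2.82, and those of the lower copies were -2.04, -1.97 and -1.61. Over all copies tested these medians were 0.08, 0.00 and 0.06. The rise of the rarest copies cannot be sized well: 16 of the 46 had at most 3 counts in each untreated library, and with those set to 3 counts per library the median of the higher copies in the mean comparison was 2.33 in place of 2.68. The heat map of the shared copies shows both blocks library by library.

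**Figure D1:**
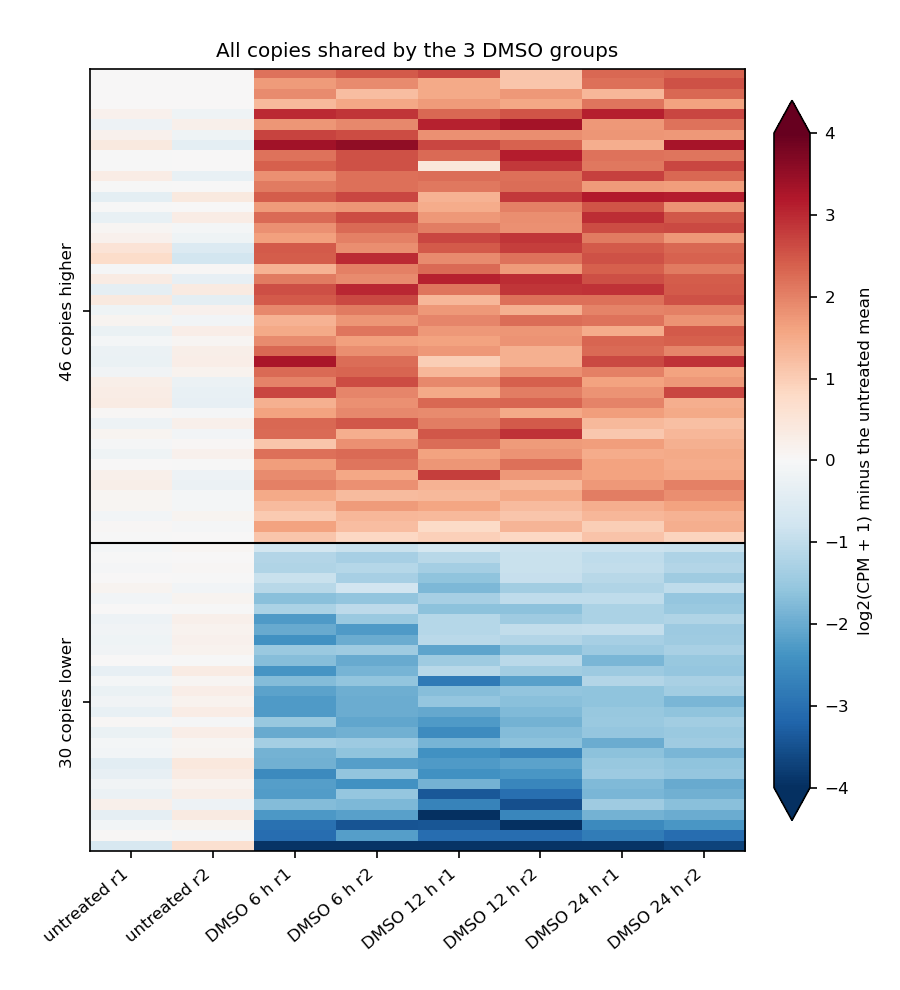
All 76 shared repeat copies (rows, ordered by log2 fold change of the mean comparison) in the 2 untreated and 6 DMSO libraries (columns; r1 and r2 are the replicates). Colour gives log2(CPM + 1) minus the mean of the 2 untreated libraries and is saturated beyond -4 and 4; the 46 higher copies stand above the black line and the 30 lower copies below it, in every DMSO library.

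Among the higher copies, the 8 with the smallest p at distinct places held an old LINE, 2 Alu copies, an L1, an LFSINE and 3 pieces of ribosomal RNA sequence. The L3b copy on chromosome 15 (39890283 to 39890484), a fragment of a LINE of the CR1 kind, had 35 and 46 CPM in untreated cells. With DMSO it had 202 and 228 CPM at 6 h, 169 and 223 at 12 h, then 101 and 93.1 at 24 h. Its log2 fold change in the mean comparison was 1.98 (SE 0.21, edgeR adjusted p = 2.5e-05). The copy was highest at 6 and 12 h and stood lower at 24 h, still above both untreated libraries. All 5 other tested copies within 20 kb of it had a positive log2 fold change, with a median of 1.47, and 3 of them were called higher in the mean comparison.

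AluSz on chromosome 7 (76824974 to 76825273), a copy of the AluS generation, was higher in every DMSO library. It had 7.01 and 12.3 CPM without treatment, then 60.2 and 81.6 at 6 h, 44.5 and 74.2 at 12 h and finally 74.7 and 55.9 at 24 h, a mean log2 fold change of 2.77 (SE 0.31, edgeR adjusted p = 4.47e-05). No other copy within 20 kb was tested there. The L1MC5a fragment on chromosome 7 (93514537 to 93514874), an ancient L1, had 13.5 and 13.2 CPM in untreated cells against 44.8 and 61.7 at 6 h, 47.4 and 65 at 12 h, then 42.7 and 39.2 at 24 h (log2 fold change 1.89, SE 0.24, edgeR adjusted p = 0.000145). In neither copy did an untreated library reach the lowest DMSO library, and 9 of the 10 tested neighbours of L1MC5a were higher too (median 0.56).

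LFSINE_Vert on chromosome 4 (119955419 to 119955601), an old SINE shared among vertebrates, had 9.01 and 11.7 CPM in untreated cells. It had 51 and 52.9 CPM at 6 h, 33 and 37.9 at 12 h and finally 30.7 and 31 at 24 h (log2 fold change 1.90, SE 0.22, edgeR adjusted p = 5.7e-05). It lies beside a second shared copy, AluJr (119953893 to 119954008), which went from 1.75 and 2.39 CPM to between 6.67 and 14.5 in the DMSO libraries. The other 2 copies tested within 20 kb of this pair were higher as well, 1 of them past the threshold. AluJr on chromosome 2 (216244433 to 216244718), of the oldest Alu generation, had 10.3 and 9.27 CPM untreated, 29.8 and 24.6 at 6 h, 25.6 and 29.4 at 12 h, then 43.4 and 37.7 at 24 h (log2 fold change 1.67, SE 0.21, edgeR adjusted p = 0.000211). Its 24 h libraries were the highest, whereas those of L3b were the lowest of the DMSO libraries. A difference among the DMSO groups was called for L3b but not for this AluJr copy.

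Of the 65 rRNA copies tested, 5 were shared and higher (7.69%), none was shared and lower, and the mean comparison called 15 higher and 1 lower. LSU-rRNA_Hsa on chromosome 5 (122990602 to 122991011) had 27.8 and 24.2 CPM untreated, 129 and 72.4 at 6 h, 150 and 198 at 12 h and finally 56.4 and 66.1 at 24 h (log2 fold change 1.97, SE 0.23, edgeR adjusted p = 8.31e-05). LSU-rRNA_Hsa on chromosome 2 (159440392 to 159440797) had 54.3 and 40 CPM untreated, 176 and 137 at 6 h, 321 and 159 at 12 h, then 143 and 140 at 24 h (log2 fold change 1.88, SE 0.24, edgeR adjusted p = 0.000211). For both large-subunit copies the highest library was a 12 h library. SSU-rRNA_Hsa on chromosome 7 (80962908 to 80963147) was lowest of the DMSO groups at 12 h, with 6.51 and 9.86 CPM untreated, 86.2 and 41.2 at 6 h, 17.1 and 22.9 at 12 h and finally 55.4 and 65.7 at 24 h (log2 fold change 2.39, SE 0.29, edgeR adjusted p = 0.000134). The other two large-subunit copies were on chromosome 11 (10529668 to 10529842), from 55.1 and 35.6 CPM to between 128 and 289, and on chromosome X (108297349 to 108297830), from 1303 and 1244 CPM to between 2147 and 3901.

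Ribosomal RNA as a whole did not separate the groups. It took 9.46% and 8.19% of the untreated counts, 21.1% and 11.3% at 6 h, 7.58% and 8.75% at 12 h, then 9.42% and 16.6% at 24 h. At 12 h the median log2 fold change of the 65 rRNA copies was 0.09, with 14 called higher and 7 lower (-0.01 with scaling by library size alone), against 0.97 at 6 h (11 and 1) and 0.73 at 24 h (6 and 0). Ribosomal sequences are close to identical among copies, so the place of each is uncertain. The rRNA share was above both untreated values in both 6 h libraries and in DMSO 24 h replicate 2, and its part in those levels was not tested.

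**Figure D2:**
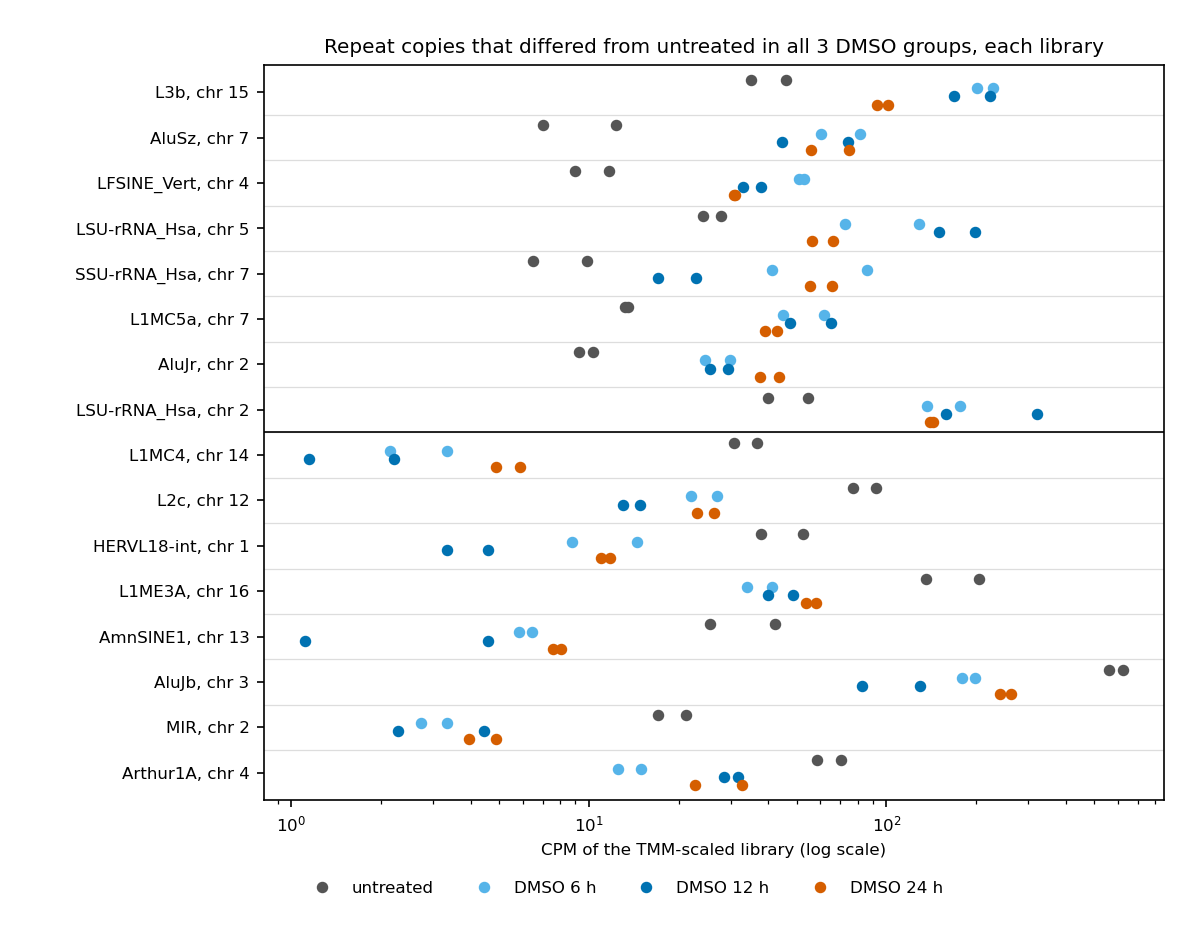
CPM of the TMM-scaled library (horizontal log axis) of 8 copies that rose and, below the black line, 8 that fell in all 3 DMSO groups; each point is a library, with 2 per group. Untreated libraries lie to the left of all DMSO libraries for the risen copies and to the right for the fallen copies.

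The fallen copies with the smallest p were an L1MC4, an L2c, a HERVL18 internal region, an L1ME3A, an AmnSINE1, an AluJb, a MIR and an Arthur1A. L1MC4 on chromosome 14 (80667817 to 80667897), a short piece of an ancient L1, had 30.8 and 36.8 CPM in untreated cells. It had 3.33 and 2.15 CPM at 6 h, 2.22 and 1.15 at 12 h and finally 4.87 and 5.85 at 24 h, a fall by 3.52 on the log2 scale in the mean comparison (SE 0.28, edgeR adjusted p = 9.03e-07), the smallest p among the shared copies. Untreated counts were 123 in each library and DMSO counts ran from 3 to 34. No other copy within 20 kb was tested.

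L2c on chromosome 12 (91573224 to 91573384), an old LINE fragment, had 77.3 and 92.1 CPM untreated, 22.1 and 26.9 at 6 h, 14.8 and 13 at 12 h, then 26.4 and 23.1 at 24 h (log2 fold change -2.05, SE 0.19, edgeR adjusted p = 4.54e-06). Its 5 tested neighbours within 20 kb were all lower, with a median of -2.76. AluJb on chromosome 3 (170150919 to 170151227) was the most abundant of the fallen copies, with 561 and 624 CPM untreated, 179 and 198 at 6 h, 83 and 130 at 12 h and finally 262 and 240 at 24 h (log2 fold change -1.79, SE 0.20, edgeR adjusted p = 5.7e-05). Its 8 tested neighbours were all lower as well, with a median of -2.11. At both places every tested copy was lower, 3 of the L2c neighbours and 2 of the AluJb neighbours past the threshold.

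HERVL18-int on chromosome 1 (118358288 to 118364307), the internal part of an endogenous retrovirus of the L class, had 37.8 and 52.3 CPM untreated, 8.74 and 14.5 at 6 h, 3.34 and 4.59 at 12 h, then 11.8 and 11 at 24 h (log2 fold change -2.47, SE 0.23, edgeR adjusted p = 5.35e-06). Here the neighbours differed from the copy: of 9 tested within 20 kb, 4 were lower, none was called lower, and their median was 0.07. AmnSINE1 on chromosome 13 (24248495 to 24248588), a SINE of early amniotes, had 25.5 and 42.1 CPM untreated, 5.83 and 6.44 at 6 h, 1.11 and 4.59 at 12 h and finally 8.05 and 7.57 at 24 h (log2 fold change -2.71, SE 0.28, edgeR adjusted p = 2.41e-05). No neighbour of it was tested.

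MIR on chromosome 2 (75505448 to 75505607), a tRNA-derived SINE, had 17 and 21.2 CPM untreated, 3.33 and 2.73 at 6 h, 4.45 and 2.29 at 12 h, then 4.87 and 3.96 at 24 h (log2 fold change -2.41, SE 0.28, edgeR adjusted p = 6.56e-05). All 5 tested neighbours of this MIR were lower, 4 of them past the threshold. Arthur1A on chromosome 4 (139089262 to 139089429), a DNA transposon fragment, had 58.3 and 70.2 CPM untreated, 15 and 12.5 at 6 h, 28.5 and 31.7 at 12 h and finally 32.6 and 22.7 at 24 h (log2 fold change -1.51, SE 0.19, edgeR adjusted p = 0.000141). Arthur1A was lowest at 6 h, unlike L2c, HERVL18-int, AmnSINE1 and AluJb, which were lowest at 12 h. A difference among the DMSO groups was called for Arthur1A and for none of the others.

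Some shared copies lay close together. With gaps under 50 kb joined, the 76 copies fell into 62 places on 20 chromosomes, of which 8 held 2 or more shared copies (22 copies in all); none of these 8 mixed directions. The lower run on chromosome 16 held 6 shared copies between 86507870 and 86524184, of 6 repeat names (L1MC2, MLT1C, MIR, L1ME3A, MLT1F1 and MIR3). L1ME3A (86523423 to 86523868) had 136 and 205 CPM untreated, 33.9 and 41.2 at 6 h, 40 and 48.6 at 12 h, then 57.9 and 53.5 at 24 h (log2 fold change -1.91, SE 0.19, edgeR adjusted p = 2.12e-05). The other 15 copies tested within 20 kb were all lower in the mean comparison, 5 of them past the threshold. With the 6 members, which were chosen for being lower, the 21 copies ranged from -2.91 to -0.49, and their medians by time were -1.90, -1.75 and -1.28. The run spans SINE, LINE and LTR names.

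Another lower run, on chromosome 2 (75466081 to 75505845), held Tigger6a, MIR and L2b, and 4 of the 5 other tested copies were lower. On chromosome 4 (139088296 to 139089429) AluSq2 and Arthur1A were shared and both other tested copies were lower. Among the runs of higher copies, 3 had many tested copies around them. On chromosome 1 (8082439 to 8083201) MIRc and L2a were shared and all 17 other tested copies within 20 kb were higher, 7 of them past the threshold. On chromosome 2 (216244433 to 216278690) AluJr, MIRc and HAL1 were shared and 52 of 57 others were higher, 6 past the threshold. On chromosome 14 (52127249 to 52140265) L2a and L1ME2 were shared and 34 of 38 others were higher, 4 past the threshold.

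The run on chromosome 10 (92673823 to 92678273) had few higher neighbours. Its shared members, CR1_Mam and MIR3, went from 0.751 and 0.598 CPM to between 4.97 and 9.46, and from 0.25 and 0 CPM to between 4.45 and 8.61. Of the other 15 copies tested within 20 kb, 5 were higher. Of all copies tested 50.7% were higher and 49.3% lower in the mean comparison. Neighbouring copies may be parts of 1 transcript, so they are not independent of each other.

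**Figure D3:**
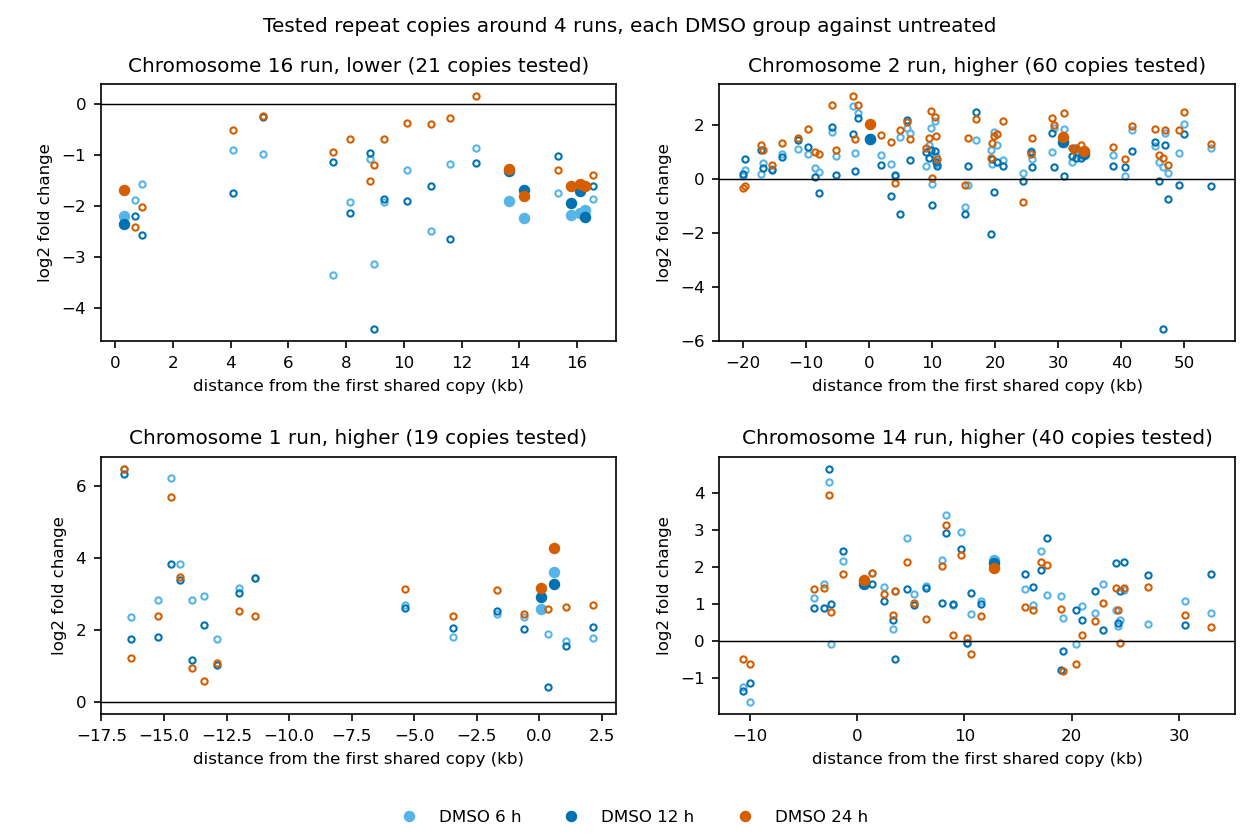
Log2 fold change against untreated (vertical axis) of every tested copy within 20 kb of 4 runs, by distance in kb from the first shared copy (horizontal axis), for DMSO 6, 12 and 24 h; filled points are shared copies and open points are the others. On chromosome 16 nearly all points lie below 0, on chromosome 1 all lie above 0, and on chromosomes 2 and 14 most lie above 0.

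Several higher copies had no reads in untreated cells. MIRb on chromosome 2 (71298153 to 71298394), LTR12_ on chromosome 2 (128417623 to 128418323), L1PA4 on chromosome 3 (99169581 to 99175046) and AluJr on chromosome 9 (100978977 to 100979276) had 0 counts in both untreated libraries. Against a floor of 3 counts per library their DMSO means were at least 2.63-fold, 3.32-fold, 4.54-fold and 2.77-fold higher. Among the lower copies, L1PA3 on chromosome 9 (70450621 to 70456693), of a young primate L1 subfamily, had 35 and 75 counts in untreated cells and 0 or 1 in the DMSO libraries. Its CPM were 8.76 and 22.4 in untreated cells and 0 in every DMSO library except 0.172 in DMSO 24 h replicate 2. L1PA3 and L1PA4 copies are close to identical to others of their kind, so reads may have been assigned to another copy.

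The 76 copies came from 53 repeat names, and the shares below are to be read against 0.0723% shared and higher and 0.0472% shared and lower over all copies. L2, L3 and CR1 elements held 10 of the 46 higher copies and 3 of the 30 lower ones, from 7986 tested (0.125% and 0.0376%). MIR held 6 and 5 of 6165 tested (0.0973% and 0.0811%). AluS held 7 and 3 of 10358 (0.0676% and 0.029%), AluJ 3 and 1 of 4539, and AluY 0 and 1 of 1628. L1 of all ages, with HAL1, held 6 higher and 7 lower copies. By group these were 3 and 4 of 7931 ancient L1 (0.0378% and 0.0504%) and 0 and 2 of 1776 older primate L1 (0% and 0.113%). Young L1 held 1 and 1 of 2402 (0.0416% each), L1MA and L1MB 1 and 0 of 3065 (0.0326% and 0%), and HAL1 1 and 0 of 505 (0.198% and 0%). SVA, of which 261 copies were tested, held none higher and 2 lower (0.766%). Both were SVA_D: the copy on chromosome 7 (36236045 to 36237518) went from 17.3 and 12.6 CPM to between 0.382 and 4.87, and that on chromosome 19 (58915600 to 58917753) from 43 and 36.5 to between 10.7 and 22.7.

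Medians over all tested copies of the Alu, SVA and ancient L1 families lay nearer to 0 than those of some small families. In the mean comparison the latter were 0.91 over ALR/Alpha satellite (26 copies, 4 called higher and 0 lower) and 0.46 over rRNA (65 copies). They were -0.44 over 7SK (12 copies), 0.41 over BC200 (4 copies) and 0.38 over Y RNA (19 copies). The median log2 fold change in the mean comparison was -0.25 over the AluS copies, -0.21 over AluJ, -0.29 over AluY and -0.36 over SVA, against 0.21 over ancient L1 and 0.01 over all copies. Of 10358 AluS copies 36 were called higher and 140 lower, of 4539 AluJ copies 15 and 75, and of 7931 ancient L1 copies 56 and 34, where 0.643% of all copies were called higher and 1.02% lower. By time, the AluS medians were -0.21 at 6 h, -0.34 at 12 h and -0.11 at 24 h, and the calls at 24 h were 22 higher and 8 lower. With scaling by library size alone the ancient L1 median was 0.07, with 53 called higher and 93 lower, and the AluS median was -0.39, with 35 and 399. At 24 h the SVA median was 0.07 (0.00 with library size alone).

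Summed over all copies of a name, 1078 repeat names could be tested and 8 were shared, which is 0.742% of them. A single name, 1 of 1078, was higher (0.0928%) and 7 were lower (0.649%). The 6 h group had 64 names higher (5.94%) and 28 lower (2.6%), 8.53% in all. The 12 h group had 16 higher (1.48%) and 247 lower (22.9%), 24.4% in all. The 24 h group had 6 higher (0.557%) and 12 lower (1.11%), 1.67% in all. The mean comparison called 18 higher (1.67%) and 109 lower (10.1%), 11.8% in all. The many lower names at 12 h go with larger TMM factors of those libraries, 1.318 and 1.232, against 0.940 to 1.105 in the other 6, and their part in the count is given further on by other scalings. L1M4c, an ancient L1 name, was the higher one, with 1654 and 1534 CPM untreated, 2078 and 1963 at 6 h, 2402 and 2331 at 12 h and finally 2830 and 2920 at 24 h (log2 fold change 0.59, SE 0.08, edgeR adjusted p = 0.00179). Its level was higher at each later time. BSR/Beta, the beta satellite, was the lower name with the smallest p, with 313 and 298 CPM untreated, 182 and 182 at 6 h, 162 and 143 at 12 h, then 211 and 218 at 24 h (log2 fold change -0.75, SE 0.08, edgeR adjusted p = 0.000207).

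The other lower names were LTR or L1 elements and a DNA transposon. L1MEa had 86 and 85.7 CPM untreated and 39.6 to 50.6 with DMSO (log2 fold change -0.98, SE 0.12, edgeR adjusted p = 0.00113). LTR21A had 135 and 133 against 63.3 to 80.1 CPM (-0.90, SE 0.13), and LTR61 had 87.1 and 91.6 against 48.9 to 59.5 CPM (-0.74, SE 0.11). HERVL18-int had 82 and 83.2 against 39.3 to 61.4 CPM (-0.80, SE 0.12). Arthur1A had 138 and 151 against 89.4 to 104 CPM, and MER57B2 had 152 and 154 against 114 to 125 CPM. For each of the 8 names no DMSO library overlapped the untreated pair, a description of names chosen on these libraries (19.3% of all names do not overlap, 5.75% with all DMSO libraries above and 13.5% below).

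The share of a single copy in these sums differed among names. The most abundant copy held 81.3% of the LTR21A counts, 68.5% of L1MEa, 52.7% of L1M4c, 49.9% of MER57B2, 32.5% of HERVL18-int, 29.7% of Arthur1A, 28.1% of LTR61 and 6.7% of BSR/Beta. With the most abundant copy of each name left out, 0 of the 8 were shared by edgeR's test, while 13 of the 1051 names then tested had an unadjusted p under 0.05 in the same direction in all 3 groups; DESeq2 was run only with that copy in, and called 7 names shared. L1M4c then stood at -0.04 and HERVL18-int at 0.12 in the mean comparison, on the other side of 0, L1MEa at -0.09, MER57B2 at -0.10 and LTR21A at -0.32. BSR/Beta (-0.72, edgeR adjusted p = 0.000386), LTR61 (-0.80, 0.00634) and Arthur1A (-0.73, 0.00634) still passed the threshold in the mean comparison, though not at all 3 times. The L1M4c copy in question, on chromosome 11 (65267133 to 65267487), had 540 and 458 CPM untreated, 987 and 897 at 6 h, 1716 and 1650 at 12 h and finally 1713 and 1868 at 24 h. The HERVL18-int copy is the one on chromosome 1 described above.

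The split of names into higher and lower also depended on the scaling. The mean comparison gave 28 names higher and 49 lower with RLE size factors or with TMM factors from the sums, 21 and 71 without structural RNA, 43 and 71 with DESeq2, and 121 and 34 with TMM factors from the filtered copies, a scaling that moves the median of all names from -0.02 to 0.14. At 6 h RLE gave 18 and 35, library size alone 14 and 36, TMM factors from the sums 29 and 34, DESeq2 37 and 53, and TMM factors from the copies 156 and 26. At 12 h RLE gave 59 and 69, library size alone 28 and 52, TMM factors from the sums 58 and 72, DESeq2 71 and 88, and TMM factors from the copies 127 and 61. At 24 h DESeq2 gave 14 and 18, without structural RNA 3 and 4 were called, library size alone gave 3 and 2, and TMM factors from the copies 9 and 4. Of the 8 shared names, 5 were shared with RLE, 1 with library size alone, 3 without structural RNA, 4 with TMM factors from the copies and 5 with DESeq2; the list fell to 0 without either untreated library or either DMSO 24 h library, with 37, 31, 34 and 22 names at an unadjusted p under 0.05 in all 3 groups.

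AluS, the Alu generation with the most copies, is an example. In the mean comparison 15 of its 17 names were called lower (median -0.30; 10.1% of all names were), but 1 of 17 with RLE (median -0.27) and 1 of 17 with TMM factors from the copies (median -0.14). At 12 h all 17 were called lower (22.9% of all names were) and 10 with RLE, at 6 h 1, and at 24 h 0 (median -0.10), and no AluS name was among the shared ones. Of the SVA names, 4 of 6 were called lower in the mean, 6 at 12 h (4 with RLE), 1 at 6 h and 0 at 24 h (median 0.01).

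**Figure D4:**
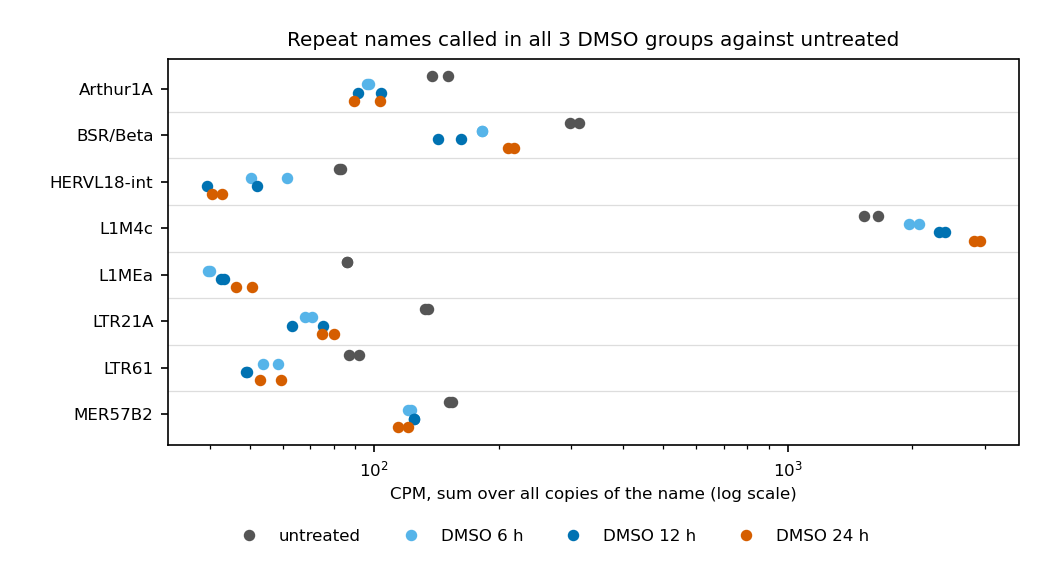
CPM summed over all copies (horizontal log axis) of the 8 repeat names called in the same direction in all 3 DMSO groups; each point is a library. L1M4c lies to the right of its untreated libraries, and the other 7 names lie to the left of theirs.

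Shares of all counts, which need no scaling between libraries, were compared for 32 repeat families. Lower in all 6 DMSO libraries than in either untreated library were AluS, AluJ, Alu monomers, SVA, BC200 and the unclassed remainder, and no family was higher in all 6. AluS took 15.1% and 15.5% of untreated counts, 11.7% and 12.7% at 6 h, 11.7% and 11.7% at 12 h, then 14.7% and 13.1% at 24 h, with means of 15.3% ± 0.318 (SD, n = 2) and 12.6% ± 1.21 (SD, n = 6). AluJ took 6.02% ± 0.0497 (SD, n = 2) and 5.13% ± 0.477 (SD, n = 6). The 24 h libraries came nearest to the untreated ones for both.

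BC200, a brain cytoplasmic RNA of Alu descent, took 0.292% and 0.312% of untreated counts, 0.23% and 0.276% at 6 h, 0.111% and 0.113% at 12 h and finally 0.244% and 0.217% at 24 h. SVA took 0.19% in each untreated library, 0.142% and 0.153% at 6 h, 0.128% and 0.116% at 12 h, then 0.189% and 0.172% at 24 h. Each of these 6 families had an exact two-sided permutation p of 0.0714, the smallest that 6 against 2 libraries allow (28 arrangements), and an adjusted p of 0.381 over the 32 families, so none could pass the threshold. Shares sum to the whole, and the structural RNA share was higher in every DMSO library than in either untreated one. Some gaps were small. In DMSO 24 h replicate 1 AluJ took 5.93%, against 5.99% and 6.06% untreated, and structural RNA took 31.7%, against 30% and 31%. The separation of the 6 families is one of shares of all counts, structural RNA included. Shares of the other counts alone are not given here, and the part of structural RNA in the lower Alu and SVA shares was not tested.

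**Figure D5:**
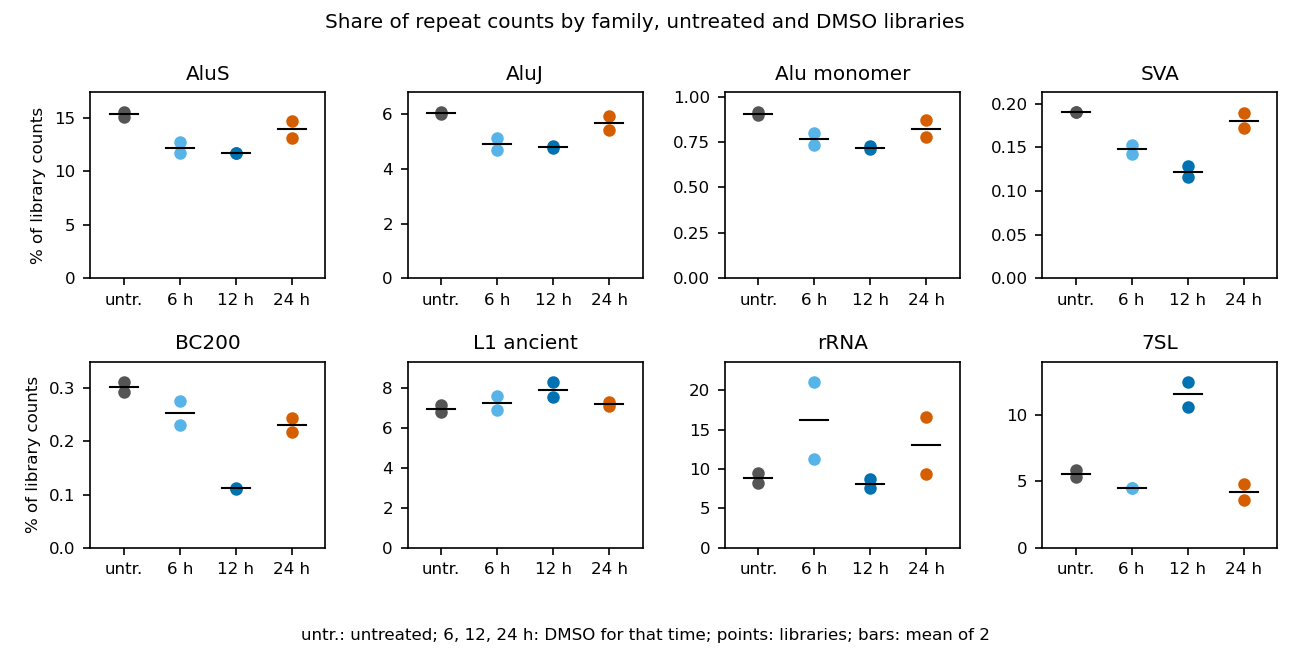
Percent of a library's counts (vertical axis, from 0) taken by 8 repeat families in untreated cells and after 6, 12 and 24 h of DMSO; points are libraries and bars are means of 2. AluS, AluJ, Alu monomers, SVA and BC200 lie below both untreated libraries in all 6 DMSO libraries. 7SL RNA lies above both untreated libraries at 12 h and below both at 6 and 24 h. The rRNA share differs between the replicates of 6 h and of 24 h, and these times overlap.

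The DMSO groups also differed from each other, without any untreated library in the test. A difference among the 3 groups was called for 1046 copies (1.64%) and 374 names (34.7%; 101 with RLE). Of the 76 shared copies 4 were among them: L3b on chromosome 15, LSU-rRNA_Hsa on chromosome 5, SSU-rRNA_Hsa on chromosome 7 and Arthur1A on chromosome 4. For the other 72 a difference between times was not called, which does not show that the times were alike.

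Some copies differed from untreated cells at 1 time while the adjusted p at both other times was over 0.5. The 6 h group had 33 higher and 30 lower copies of this kind, the 12 h group 155 and 114, and the 24 h group 2 and 2. The U2 small nuclear RNA copy on chromosome 10 (103124607 to 103124792) had 16.3 and 17.6 CPM untreated, 25.4 and 18.7 at 6 h, 4775 and 5842 at 12 h and finally 24.2 and 25.6 at 24 h (12 h log2 fold change 8.29, SE 0.60, edgeR adjusted p = 4.68e-08). Tigger4b on chromosome 16 (29453571 to 29453909) had 32.5 and 32.9 CPM untreated and 26.9 to 33.5 at 6 and 24 h, but 0 counts in both 12 h libraries. The 12 h group had the most copies of this kind.

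At 6 h alone L2a on chromosome 4 (81218674 to 81219822) was higher, with 130 and 92.6 CPM against 32 and 33.8 untreated and 28.1 to 45.9 at 12 and 24 h. AluSq2 on chromosome 20 (54963586 to 54963890) had 4.5 and 6.28 CPM untreated and 0 in both 6 h libraries, with 2.22 to 6.93 at 12 and 24 h. U2 copies have near-identical relatives and AluSq2 copies have many similar ones, so reads may have been assigned to another copy. Of the copies lower at 24 h alone, that with the smaller p lies on chromosome Y and is not described. At 24 h alone L1MB7 on chromosome 15 (32757808 to 32758111) had 6.18 and 3.96 CPM, against 0.25 and 0 untreated and 0 in the 6 and 12 h libraries. Of the repeat names, L3b was higher at 6 h alone (1510 and 1553 CPM against 1233 and 1185 untreated), X5B_LINE was higher at 12 h alone (69.5 and 77.3 against 42.1 and 37.5), and LTR12C was lower at 12 h alone (412 and 411 against 666 and 652).

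A second table of the series gives another look at some copies. It holds 2 libraries of cells given DMSO for 6 h as the control of Nutlin, an MDM2 inhibitor, beside untreated cells; its 2 untreated columns are identical and count as 1 sample, and by their names they are the same untreated samples as in the time course, so this is no independent untreated group. Both tables hold counts, but those of untreated cells differ between them. L3b on chromosome 15 had 144 there, against 140 and 154 in the time course. SSU-rRNA_Hsa on chromosome 7 had 63, against 26 and 33. CPM of counts outside structural RNA are therefore given here and no test was made. L1MC4 had 50.9 CPM untreated and 6.53 and 6.17 with DMSO, L1ME3A 221 against 69.8 and 91.5, AmnSINE1 42.4 against 19.1 and 21.6, AluJb 918 against 552 and 602, and HERVL18-int 61 against 19.1 and 50.9. In these 5 of the 8 named fallen copies both DMSO values were below the untreated one. Since the copies were chosen on the same untreated samples, this is not independent of that choice. The share of all copies with both DMSO values below was not counted, so 5 of 8 is a description only.

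The other named fallen copies did not have both DMSO values below the untreated one. MIR on chromosome 2 had 27.1 CPM untreated in that table and 47.2 and 63.2 with DMSO, Arthur1A 95.4 against 118 and 147, and L2c 127 against 96.4 and 135. Of the risen copies, L3b had 58.2 against 86.8 and 63.2, AluSz 11.7 against 15.6 and 12.9, L1MC5a 22.2 against 25.1 and 39.6, LSU-rRNA_Hsa on chromosome 5 had 50.1 against 57.7 and 53, and SSU-rRNA_Hsa 25.5 against 32.6 and 31.9. In these 5 of the 8 named risen copies both DMSO values were above the untreated one, with the same limits. LFSINE_Vert had 14.5 against 2.01 and 7.2, and AluJr on chromosome 2 had 17 against 13.6 and 11.3, below it. LSU-rRNA_Hsa on chromosome 2 had 119 CPM untreated and 19.6 and 18.5 with DMSO, below untreated cells where the time course had it above.

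The 5-FU libraries of the time course, to which a solvent volume was matched, entered the fit through the shared estimate of the spread and through the filter on low counts (44369 copies were tested, and 189 were shared, with the 8 untreated and DMSO libraries alone); their values are given with no test. At 12 h of 5-FU several copies stood near the untreated level and away from DMSO: L2c had 116 and 106 CPM, AmnSINE1 39.4 and 33.1, MIR on chromosome 2 had 21.5 and 25.6, and L1MC5a 14.1 and 12.8. L3b had 36.2 and 27.6 CPM and LFSINE_Vert 3.23 and 2.61 in those libraries, within or below their untreated range. At 6 h of 5-FU all 6 of these copies lay on the DMSO side of both untreated libraries: L2c had 29.4 and 29.7 CPM, AmnSINE1 8.36 and 5.89, MIR 4.29 and 6.84, L1MC5a 66.9 and 78.3, L3b 252 and 227, and LFSINE_Vert 54 and 47.1. L1MC4 stayed below untreated cells in all 6 of the 5-FU libraries, between 2.14 and 11.5 CPM, as did Arthur1A, between 14.4 and 25.6.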

How the data were processed

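The authors deposited raw counts per annotated repeat copy, from stranded total RNA per the labels' protocols. Trimmomatic 0.32, cutadapt 1.10, Bowtie2, edgeR and DESeq2 are listed in the submitters' processing notes, with hg19; the counting program, repeat annotation and treatment of multiply mapping reads are not given in the sources used here. All 14 libraries of the 5-FU table (7 groups of 2) were fitted together with edgeR 4.0.16 (filterByExpr, TMM, quasi-likelihood test, a mean per group, Benjamini-Hochberg), for copies and for sums per repeat name, the latter scaled by TMM factors from all copies; DESeq2 1.42.0 was an alternative. In data simulated for the mean comparison (53881 copies, 200 changed), 35.9% of 4-fold and 2.35% of 2-fold changes were recovered. Of the 45 copies called there 10 were false, a larger share than the adjusted p threshold is meant to allow. The copy calls of the mean comparison may therefore hold more false ones than that threshold implies. For the shared rule 12% and 0% were recovered, with 1 false call of 12. For names (1075) the mean comparison recovered 99% and 87.9%, with 8 false calls of 194.

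Named copies were the 8 risen and 8 fallen shared copies with the smallest p in the mean comparison, 1 per run (gaps under 50 kb), with a log2 change of at least 1 and no overlap of libraries; named repeat names were up to 5 in each direction by p; for each single time, the top copy and name in each direction. Other copies and names given were chosen after their values were seen. The members and lists were chosen with earlier results of these data known.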

Additional observations from a re-analysis of the deposited data

Results flagged for a closer look

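For 6 of the named copies and repeat names the level differed among the 6, 12 and 24 h DMSO groups. This was by edgeR's quasi-likelihood test of that difference, adjusted over all copies or names tested. The groups also differ in the time since the medium was changed, so this is not a difference in the effect of DMSO alone. L3b on chromosome 15 differed at an adjusted p of 0.0139, being lowest of the DMSO groups at 24 h. LSU-rRNA_Hsa on chromosome 5 differed at an adjusted p of 0.00545, with its highest levels at 12 h. SSU-rRNA_Hsa on chromosome 7 differed at an adjusted p of 0.00688, with its lowest DMSO levels at 12 h. Arthur1A on chromosome 4 differed at an adjusted p of 0.0382, with its lowest levels at 6 h. Of the repeat names, BSR/Beta differed at an adjusted p of 0.00733, being lowest at 12 h, and L1M4c at 0.00606, being highest at 24 h. With groups of 2 libraries, single libraries were not tested as outliers.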

How the results depend on the processing

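With 2 libraries a group and 2412334 to 5635377 counts a library, few changes of low copies could be called, and the same 2 untreated libraries enter every comparison. All 16 named copies kept their direction and call in the mean comparison under every alternative that tested them. They were chosen there for the smallest p and a log2 change of at least 1, so the stricter thresholds could not remove them. This does not cover the shared call, which 13 of the 76 copies kept at an adjusted p under 0.01. The 6 repeat names named by rule all lie under a log2 change of 1 and lost their call under that alternative by construction. Of 22 alternatives BSR/Beta kept its call under 21, L1MEa, LTR21A and LTR61 under 20, and L1M4c and HERVL18-int under 19. Without the most abundant copy of each name, L1M4c (-0.04) and HERVL18-int (0.12) changed sign. Causes of the shifts below were not tested, apart from the stricter thresholds, which call fewer by construction; leaving out a library also loosened the filter on low counts.

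The shared copies (76) numbered 205 with at least 10 counts in every library, 130 with no filter, 178 with DESeq2, 13 at an adjusted p under 0.01, 189 with the 8 libraries alone and 140 when 6 and 24 h alone were required, a setting chosen after seeing the data; leaving out a library gave 15 to 56. The copies of the mean comparison (1057) numbered 2003 with library size alone, 308 under 0.01, 1985 with the 8 libraries and 688 for the mean of 6 and 24 h, and 193 to 993 without a library. At 6 h (869) they numbered 1542 with library size alone, 1683 with at least 10 counts, 1515 with DESeq2, 228 under 0.01, 1899 with the 8 libraries, and 159 to 886 without a library. At 12 h (1362) they numbered 2165, 415 and 2463 with at least 10 counts, under 0.01 and with the 8 libraries, and 369 to 1311 without a library. At 24 h (220) they numbered 528 with at least 10 counts, 492 with no filter, 538 with DESeq2, 33 under 0.01, 534 with the 8 libraries, and 40 to 283 without a library. Copies differing among DMSO groups (1046) numbered 2303, 2227, 307 and 2284 with at least 10 counts, DESeq2, under 0.01 and with the 8 libraries, and 386 to 1117 without a library.

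The shared names (8) numbered 5 with RLE or TMM factors from the sums, 1 with library size alone, 3 without structural RNA, 21 with the 8 libraries, and 0 under 0.01, with a log2 change of at least 1, or without the most abundant copy; leaving out a library gave 0 to 5. At an unadjusted p under 0.05 edgeR called 42 names in all 3 groups, and DESeq2 called 7 at the adjusted threshold. The names of the mean comparison (127) numbered 77 with RLE or TMM factors from the sums, 69 with library size alone, 29 under 0.01, 3 with a log2 change of at least 1, 208 with the 8 libraries, 41 without the most abundant copy and 57 for the mean of 6 and 24 h, and 6 to 110 without a library. At 6 h (92) they numbered 53 with RLE, 50 with library size alone, 12 under 0.01, 13 with a log2 change of at least 1, 246 with the 8 libraries, 182 with TMM factors from the copies and 10 without the most abundant copy, and 7 to 51 without a library. At 12 h (263) they numbered 128, 80 and 130 with RLE, library size alone and TMM factors from the sums, 159 with DESeq2 and 159 under 0.01, 27 with a log2 change of at least 1 and 137 without the most abundant copy, and 152 to 246 without a library. At 24 h (18) they numbered 5 with library size alone, 7 without structural RNA, 32 with DESeq2, 3 under 0.01, 1 with a log2 change of at least 1, 77 with the 8 libraries and 1 without the most abundant copy, and 1 to 13 without a library. Names differing among DMSO groups (374) numbered 101 with RLE, 74 with library size alone, 239 without structural RNA, 132 with DESeq2, 159 under 0.01, and 100 and 140 with TMM factors from the sums and from the copies, and 111 to 346 without a library. The non-overlapping families (6) numbered 10 without the 12 h libraries and 6 to 12 without a library.

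Same-numbered libraries did not deviate together (correlations of -0.05 to 0.02 over 63602 copies). Many of these copies have few counts, which brings such correlations near 0 in any case. Whether the numbers pair the samples is therefore not settled. With the replicate number as a block, 66 copies were shared (39 higher, 27 lower; 59 of the 76), 5 names were shared (5 of the 8), and 49 names were called at 6 h.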
